A study of Mus musculus with 18 samples.

Results

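The genes that encode the protein subunits of the cytosolic ribosome were followed through the input and the positive fraction of brain from LPS- and PBS-treated Cx3cr1-NuTRAP mice. Members were the protein-coding rows whose symbol begins with Rpl or Rps and a number, together with Rplp0 to Rplp2 and Rpsa, without the S6 kinases (Rps6k), Rps19bp1 and Rpl7l1. The rule gave 87 of the 36172 genes listed, 53 of the large and 34 of the small subunit. The animals were Cx3cr1-Cre/Ert2+; NuTRAP+ mice of about 3 months, in which the Cx3cr1 promoter drives a tamoxifen-inducible Cre, and Cre switches on an EGFP-tagged ribosomal protein. At 3 to 4 weeks after tamoxifen they were injected intraperitoneally with 5 mg/kg lipopolysaccharide (LPS, a bacterial membrane component that triggers inflammation) or with saline buffered by phosphate (PBS), and brain was collected 24 h later. From a half-brain of each animal, part of the cleared lysate was kept as input, and the rest went through an anti-GFP pulldown of tagged ribosomes, which yields the positive fraction (translating ribosome affinity purification, TRAP). The labels list 18 libraries of 9 animals, 6 female and 3 male. The input library of LPS animal 271 held 1250 counts and was left out, which leaves 4 libraries each of Input PBS, Input LPS and Positive PBS and 5 of Positive LPS. The driver marks cells that express Cx3cr1 while tamoxifen acts, which beside microglia include border macrophages. Circulating monocytes express it too, and per the study's methods the wait after tamoxifen was meant to let these short-lived cells be replaced.

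Values given per library follow the animals 268, 272, 273 and 506 for PBS and 266, 267, 270, 271 and 507 for LPS, without 271 in input. The 17 libraries held between 22968834 and 35123335 estimated counts. All 10 microglia markers were detected, and their summed level was 230433 to 272754 normalised counts in Positive PBS, 196902 to 274122 in Positive LPS, and 11959.8 to 17384 over the input libraries. The 6 neuron markers summed to 183984 to 193327 in Input PBS and to 190725 to 219307 in Positive PBS. Their sum was thus not lower in the positive fraction, but a sum follows its most abundant genes. The paper reports depletion of neuronal markers from the positive fraction of this mouse line, by qPCR and in marker lists by RNA-seq. The 5 oligodendrocyte markers went from 87589 to 140158 in Input PBS to 19169 to 25512 in Positive PBS. The 6 astrocyte markers summed to 46099 to 49253 in Input PBS and to 36059 to 45045 in Positive PBS. The 4 endothelial markers were higher in the positive fraction, at 1467 to 2099 in Input PBS and 4178 to 6034.5 in Positive PBS.

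A cytosolic ribosome joins a large and a small subunit, each built from its own ribosomal RNA and a set of proteins made from nuclear genes. Their mRNAs are among the most abundant of any cell and typically begin with a 5′ terminal oligopyrimidine (TOP) tract, a C followed by further C and T letters, through which the mTOR pathway and the LARP1 protein regulate their translation together. Several core genes have a paralog, such as Rpl39l beside Rpl39 or Rps27l beside Rps27, which can take the place of the core protein and tends to be expressed in fewer tissues. TRAP reads the mRNA that is bound to tagged ribosomes, so a value in the positive fraction combines how much mRNA the tagged cells hold with how much of it is on ribosomes. RNA carried over from other cells, whose markers had counts in that fraction, would add to such a value. Its amount was not tested.

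Windows of 15 bases on each side of the RefSeq start site (GRCm38.p6) were read for 64 of the 87 members. A run of at least 5 C or T letters on the sense strand that held or touched the start was found for 20 of them (31.2%), against 16.1% of 27025 genes. A run that touched the start could end at the base before it, outside the annotated transcript. That of Rpl39l does so, and its start base is G. The windows below are of genes on which the results turn, from 5′ to 3′, with the run in capitals where it has at least 5 letters, and the start is the sixteenth base. An annotated start can lie some bases from the start in use, so a window without capitals says only that these letters do not meet at this position.
Rps18, chr17:33955651-33955680, minus strand: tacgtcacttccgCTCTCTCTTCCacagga
Rpl35, chr2:39005117-39005146, minus strand: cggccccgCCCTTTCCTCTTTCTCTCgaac
Rps6, chr4:86857353-86857382, minus strand: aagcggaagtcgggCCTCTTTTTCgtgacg
Rplp2, chr7:141447636-141447665, plus strand: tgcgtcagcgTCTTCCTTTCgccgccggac
Rpl39l, chr16:10170213-10170242, plus strand: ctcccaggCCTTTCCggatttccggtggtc
Rps27l, chr9:66946071-66946100, plus strand: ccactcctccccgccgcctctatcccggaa
Rpl22l1, chr3:28805493-28805522, plus strand: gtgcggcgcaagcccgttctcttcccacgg
Rpl10a, chr17:28328456-28328485, plus strand: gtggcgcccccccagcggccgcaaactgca

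The first 3 genes after Rps18 in this list carry runs of 18, 10 and 10 letters, Rps18 one of 11 and Rpl39l one of 7, whereas the windows of Rps27l, Rpl22l1 and Rpl10a hold none of 5 letters at the start.

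The share of a library taken by the members was raised after LPS in the positive fraction and lay at one level in the other groups. The large subunit genes together took 1.498%, 1.46%, 1.23%, 1.54% and 1.39% of all counts in the Positive LPS libraries, against 0.904%, 0.861%, 0.976% and 0.895% in Positive PBS. The small subunit genes took 0.864%, 0.839%, 0.723%, 0.909% and 0.795% in Positive LPS, against 0.508%, 0.463%, 0.538% and 0.514% in Positive PBS. For both subunits every Positive LPS library lay above every Positive PBS library. All members together averaged 2.25% ± 0.191 in Positive LPS (SD, n = 5), 1.42% ± 0.0777 in Positive PBS (n = 4), 1.47% ± 0.11 in Input LPS (n = 4) and 1.43% ± 0.186 in Input PBS (n = 4). The ranges of the last 3 groups overlapped.

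The summed counts of the large subunit genes were 1.70 ± 0.0262 times those of the small subunit genes in Input PBS, 1.71 ± 0.0221 in Input LPS, 1.80 ± 0.0512 in Positive PBS and 1.73 ± 0.0235 in Positive LPS. Positive PBS reached from 1.74 to 1.86, above the 4 Input PBS libraries, whose highest value was 1.73. Positive LPS reached from 1.70 to 1.75 and overlapped with both input groups. These ratios are given as a description, without a test.

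**Figure D1:**
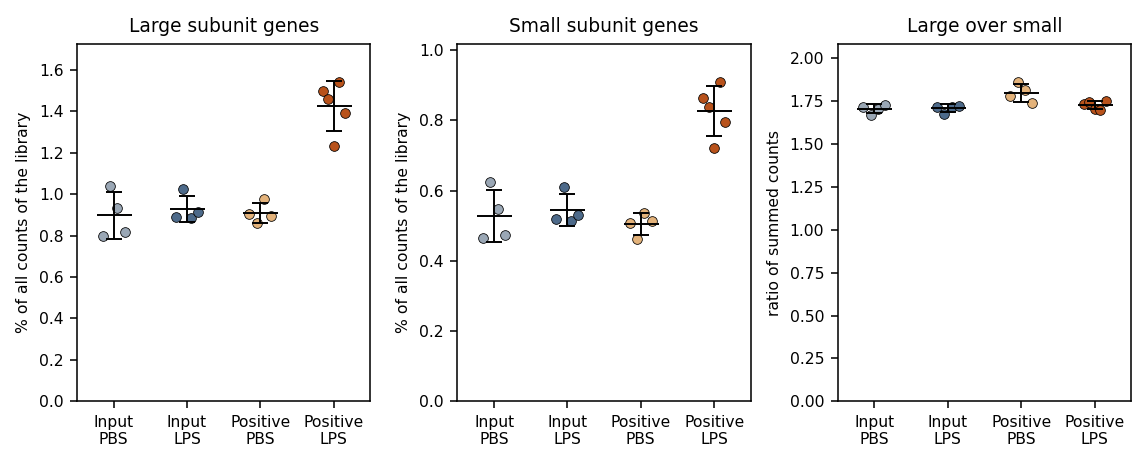
Summed counts of the large and the small subunit genes as % of all counts of a library, and the ratio of large to small subunit counts, in the 4 groups. Points are libraries, bars are the mean and the SD (n = 4, 4, 4 and 5). The 5 Positive LPS libraries lie above all others in the first panels, and the ratio lies between 1.67 and 1.86 throughout.

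LPS raised nearly the whole set in the positive fraction. Of the 80 members that passed the filter (over 20 normalised counts in every library of at least 1 group), 78 were called higher and 0 lower in Positive LPS than in Positive PBS. One of the 78, Rpl39l, passed the filter through Positive LPS alone, and the other members passed it in all 4 groups. Here and below, a gene is called where its adjusted p is under 0.05 and its log2 fold change lies beyond 0.32 in either direction (edgeR, Benjamini-Hochberg over all 14803 genes tested). Of all genes tested, 19.0% were called higher in this comparison. The median log2 fold change over the tested members was 0.70, with quartiles of 0.60 and 0.86, against 0.01 over all genes. In 77 members every Positive LPS value lay above every Positive PBS value, which held for 17.1% of all genes. Large and small subunit genes moved alike, with 47 of 49 called and a median of 0.69 for the large and 31 of 31 and a median of 0.71 for the small subunit, a difference that was not tested. These levels are relative to the other genes of a library, and in bulk samples more tagged cells and more RNA per cell cannot be told apart.

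**Figure D2:**
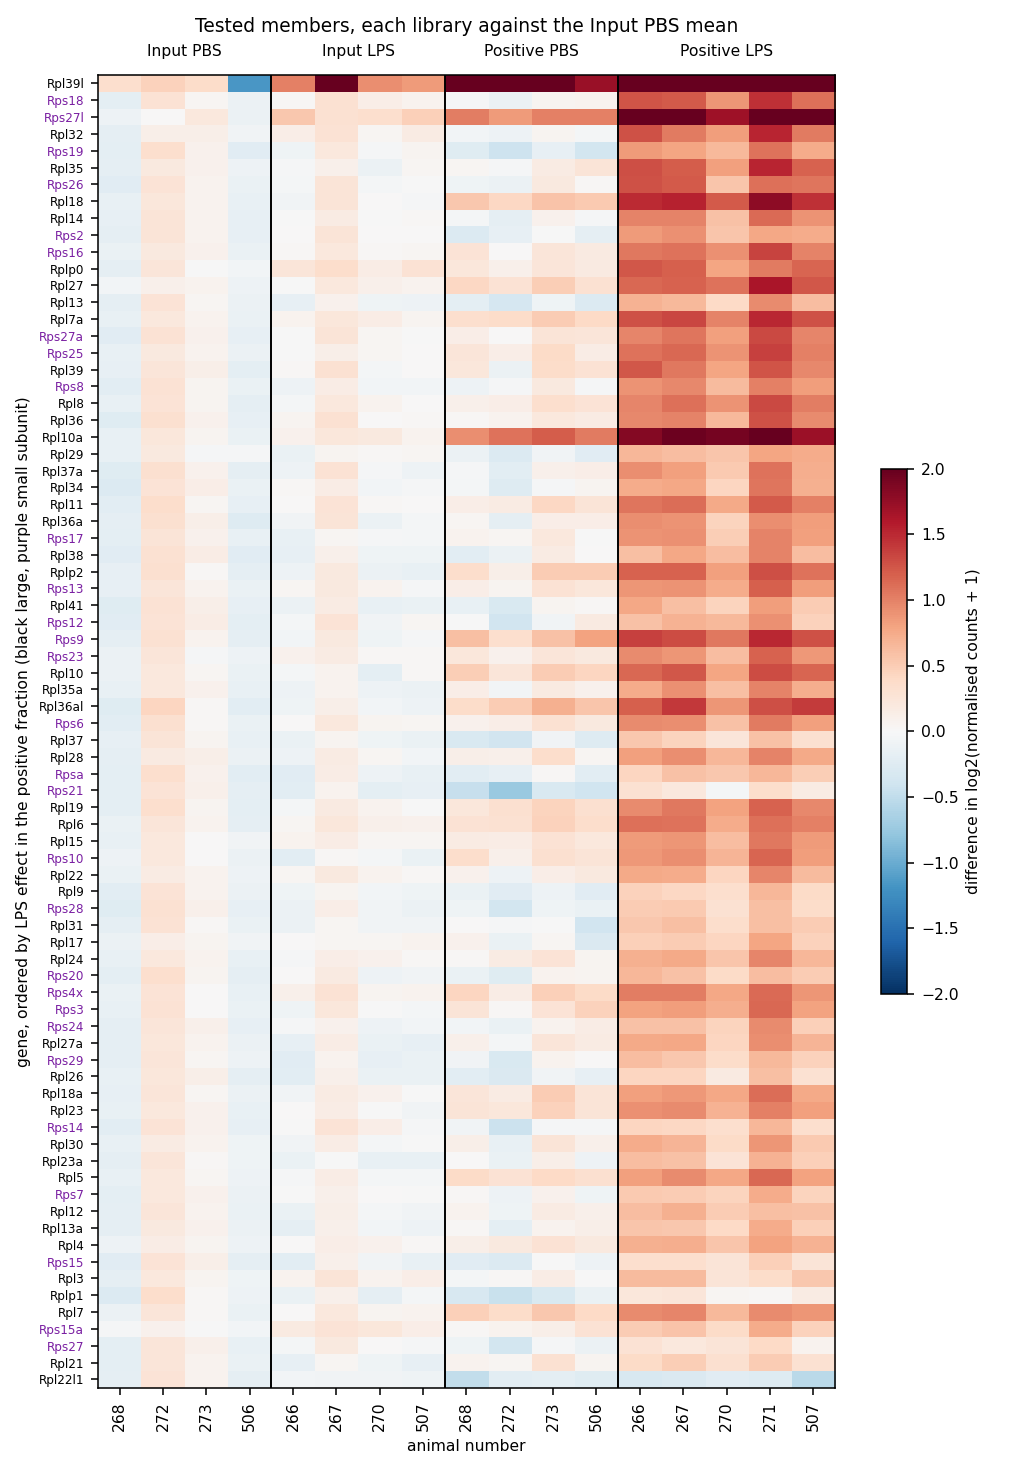
Log2(normalised counts + 1) of 78 of the 80 tested members in 17 libraries, each minus the mean of the 4 Input PBS libraries, with genes in the order of their LPS effect in the positive fraction. The colour scale ends at 2 in each direction and Rpl39l, Rps27l and Rpl10a run past it. The 5 columns of Positive LPS are red in nearly every row, Rpl22l1 in the last row is not, and the column of animal 270 is the palest of the 5.

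Rpl10a stood at 6143, 6881, 7494 and 6596 normalised counts in the 4 Positive PBS libraries and at 11489, 12519.7, 12125, 14479 and 10606 in the 5 Positive LPS libraries. Rpl10a is the protein to which the tag of TRAP mice is fused, and the construct carries a copy of its coding sequence whose reads may be counted with the gene. All LPS values lay above all PBS values, and the log2 fold change was 0.85 ± 0.10 (SE, adjusted p = 1.84e-06).

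The P stalk of the large subunit recruits the GTPases that drive translation and is built from Rplp0 with pairs of Rplp1 and Rplp2. The log2 fold changes of its genes ran from 0.44 to 0.91, a difference that was not tested. Rplp0 stood at 5754, 5262, 5801 and 5550.2 normalised counts in the 4 Positive PBS libraries and at 11581, 11252, 8486, 10073 and 10981 in the 5 Positive LPS libraries, a log2 fold change of 0.91 ± 0.09 (adjusted p = 7.46e-07). Rplp1 was at 5489.5, 4999, 5546 and 6215 in Positive PBS and at 7992, 8135, 7042, 6961 and 7648 in Positive LPS, so that the groups did not overlap but lay close to each other, with a log2 fold change of 0.44 ± 0.11 (adjusted p = 0.00288). Rplp2 rose by 0.75 ± 0.12 on the log2 scale (adjusted p = 7.58e-05).

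Rpl5 and Rpl11 form a particle with 5S ribosomal RNA that also binds Mdm2, the ubiquitin ligase of p53, when ribosome assembly is disturbed. Rpl5 stood at 9678, 9102, 9793 and 9252 normalised counts in the 4 Positive PBS libraries and at 13141, 14241, 12685, 16485 and 12952 in the 5 Positive LPS libraries. Rpl11 was at 5957, 6099, 7214 and 6511 and at 11439, 11792, 9154, 12711 and 10959. Both genes rose, by 0.56 ± 0.09 (adjusted p = 7.41e-05) and 0.80 ± 0.11 (adjusted p = 2.61e-05) on the log2 scale. The 8 genes of the exit tunnel and its rim, where the new chain leaves the ribosome (Rpl4, Rpl17, Rpl19, Rpl23a, Rpl26, Rpl31, Rpl35 and Rpl39), were all called higher, from 0.50 for Rpl4 to 1.11 for Rpl35. Rpl13a, which leaves the ribosome as part of an interferon-induced complex that silences inflammatory mRNAs, went from 10047, 8645, 10414 and 10755 to 14598, 14318, 13088, 16471 and 13748, a log2 fold change of 0.54 ± 0.09 (adjusted p = 0.000195). Its rise was below the median of the set.

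On the small subunit, Rps6 is the substrate of the S6 kinases and a common readout of mTOR activity at the protein level. Rps6 stood at 7869, 8089, 9123 and 8476 normalised counts in the 4 Positive PBS libraries and at 14283, 14044, 11149, 15202 and 13022 in the 5 Positive LPS libraries. The groups did not overlap and the log2 fold change was 0.69 ± 0.10 (adjusted p = 4.64e-05). Rps27a, which is made as a fusion with ubiquitin, rose by 0.88 ± 0.11 (adjusted p = 6.95e-06). The genes of the mRNA entry channel, Rps2 and Rps3, rose by 0.93 ± 0.10 and 0.61 ± 0.11 on the log2 scale. Rpsa rose by 0.68 ± 0.11, and Rps25, which viral internal ribosome entry sites need, by 0.88 ± 0.09. Rpl38 of the large subunit, known from its role in the translation of Hox mRNAs in the embryo, rose by 0.76 ± 0.12. All 5 were called.

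The largest changes on either subunit were about 2.30-fold among the core genes. Rps18 stood at 3461, 3259, 3662 and 3718 normalised counts in the 4 Positive PBS libraries and at 8429.8, 8253, 6509, 9692 and 7619 in the 5 Positive LPS libraries, and the log2 fold change was 1.20 ± 0.11 (adjusted p = 1.97e-07). Rpl32 followed at 1.19 ± 0.11 and Rps19, the gene most often mutated in Diamond-Blackfan anaemia, at 1.13 ± 0.11, the latter from 2597, 2298, 2741 and 2374 to 5536, 5340.0, 4797, 6518 and 5157 normalised counts. Rpl35 was at 1.11 ± 0.11. The library of animal 270 was the lowest of Positive LPS for Rps18, Rpl32, Rps19 and Rpl35, and its values still lay above all PBS values.

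Members at the low end were few. Rpl21 stood at 8472, 8346, 9943 and 8385 in Positive PBS and at 10529.9, 11381, 10085, 11497 and 9943 in Positive LPS, so the lowest LPS library and the highest PBS library had nearly the same value. Its log2 fold change of 0.28 ± 0.09 had an adjusted p of 0.019, but it lay under the log2 threshold of 0.32 and was not called. Of 28 alternative fits 4 called it, among them the one without the Positive PBS library of animal 273, the high one. Rps27 (0.39 ± 0.10), Rps15a (0.41 ± 0.08) and Rpl7 (0.44 ± 0.09) were the lowest of the called members, and Rps27 was not called without the Positive PBS library of animal 272. Rpl22l1 was the sole tested member with a log2 fold change below 0, at -0.04 ± 0.10 (adjusted p = 0.757).

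Markers of other cell types were measured beside these results. The 10 neutrophil markers summed to 144 to 310.4 normalised counts in Positive PBS and to 418 to 1011 in Positive LPS, with Elane and Ly6g at 0 in both, and 4 of the 5 tested were called higher. In input the same list went from 464 to 844 up to 742 to 1594, and there too 4 of the 5 tested markers were called higher. The 8 markers of monocytes and border macrophages summed to 4439 to 8849 in Positive PBS and to 3193 to 5564 in Positive LPS, with 4 of 7 called lower. The 5 cycling cell markers summed to 171 to 220.0 and to 142 to 273, and the 6 lymphocyte markers to at most 17.4 in any positive library. The neuron markers summed to 145871 to 197902 in Positive LPS, with 2 of 6 called lower than in Positive PBS, and the oligodendrocyte markers to 16197 to 26521, with 2 of 5 called lower. Of the 6 astrocyte markers 1 was called higher and 2 lower, and of the 4 endothelial markers 1 higher and 1 lower. The microglia markers changed too, with 3 of 10 called higher and 4 lower in Positive LPS than in Positive PBS. Of all genes tested, 19.0% were called higher and 14.9% lower in this comparison. The part of other cell types in the rise of the members was not tested.

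In input the LPS effect on the set was near 0. Of the 80 tested members 1 was called higher and 0 lower in Input LPS than in Input PBS, against 7.16% and 5.26% of all genes, and 4 members had an unadjusted p under 0.05. DESeq2 called 1 higher and 0 lower. The median log2 fold change was 0.02, with quartiles of -0.05 and 0.07. The sexes were not balanced, with 2 female and 2 male Input PBS libraries against 3 female and 1 male Input LPS libraries. With female animals alone the median was 0.13, against 0.01 over all genes, and with sex as a covariate it was 0.05. With 1 library left out it ran from -0.04 (Input PBS of animal 268) to 0.11 (Input PBS of animal 272, a male). Among the members other than paralogs the highest log2 fold change was that of Rplp0. Rplp0, often used as a reference gene, was at 4315, 5761, 4879 and 4734 in Input PBS and at 5772, 6244, 5418 and 5982 in Input LPS, which overlap, and its fold change of 0.25 ± 0.10 had an adjusted p of 0.101. It was called without the Input PBS library of animal 272, which was the highest of its group for most members.

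The member called in input was Rps27l, a target of p53, with 245, 265, 308 and 245 in Input PBS and 383, 325, 333 and 369 in Input LPS. The groups did not overlap, and the log2 fold change was 0.41 ± 0.13 (adjusted p = 0.045). The call was close to the threshold: it was kept in 10 of 28 alternative fits, in which the adjusted p reached from 0.0107 to 0.244 and the log2 fold change from 0.35 to 0.56.

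The difference of the LPS effect between the fractions was tested as an interaction. It was called for 71 of the 80 members, each with the larger effect in the positive fraction, against 5.46% of all genes in that direction. The median difference was 0.70 on the log2 scale, 0.69 for the large and 0.72 for the small subunit. It was largest for Rpl35 (1.11 ± 0.16, adjusted p = 0.000412), Rps19 (1.11 ± 0.16, adjusted p = 0.000422) and Rps18 (1.08 ± 0.16, adjusted p = 0.000428). The members not called were Rpl22l1, Rpl39l, Rps15a, Rpl3, Rpl7, Rps27, Rpl21, Rps14 and Rplp1. The count fell to 40 without animals 506 and 507 and to 5 with female animals alone, while the median difference was 0.77 and 0.59. The calls in that direction over all genes fell from 808 to 264 and 55. With female animals alone the median LPS effect was 0.70 in the positive fraction and 0.13 in input. Why the counts fell was not tested.

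**Figure D3:**
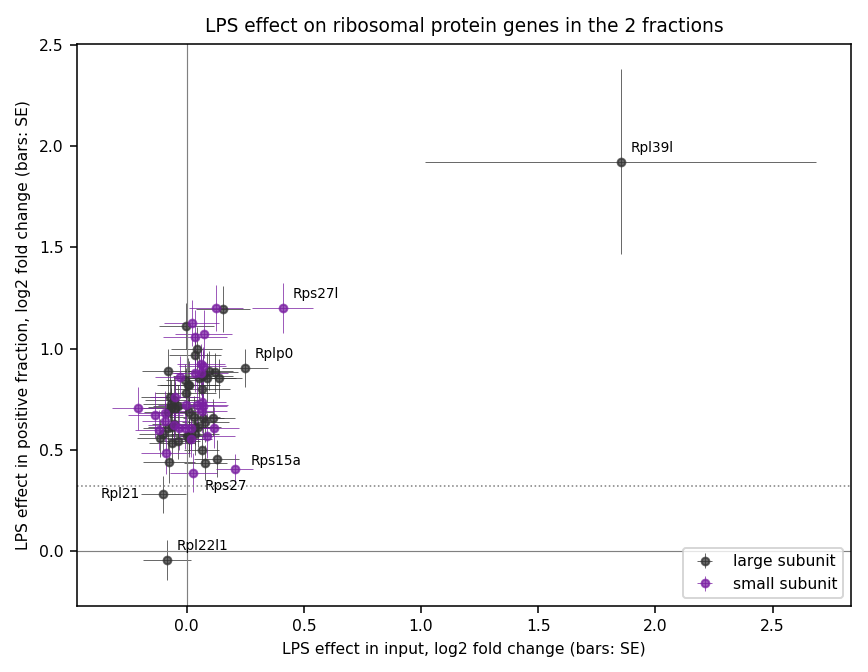
Log2 fold change of LPS against PBS in input (x axis) and in the positive fraction (y axis) for the 80 tested members, with the SE as bars and the dotted line at a log2 fold change of 0.32. Nearly all members lie near 0 on the x axis and between 0.39 (Rps27) and 1.20 (Rps18) on the y axis, apart from Rpl39l, Rpl21 and Rpl22l1.

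The positive fraction was next compared with input. The neuron marker sum was not lower in the positive fraction, and the part of RNA from other cells was not tested. A like level in both fractions therefore does not show that the tagged cells resemble whole brain in these mRNAs. In PBS animals most members were at nearly the same level in both, with 14 called higher and 1 lower of 80, against 21.0% and 18.8% of all genes. The median log2 fold change was 0.09, 0.11 for the large and -0.001 for the small subunit. The direction of the median turned with the scaling, to -0.03 with total counts, -0.04 with all 18 libraries, and -0.03 when the authors' log2 values were used. The same alternatives moved the median of all genes to -0.12, -0.12 and -0.13. With female animals alone the median was 0.26 for the members and 0.01 for all genes. The members called higher were Rpl39l, Rpl10a, Rps27l, Rps9, Rpl36al, Rpl18, Rpl7, Rpl10, Rpl7a, Rpl27, Rplp2, Rps4x, Rpl5 and Rpl6, of which Rpl39l had at most 2 counts in each Input PBS library. Rps21 was the one called lower, from 3532, 4878, 4335 and 3551 in Input PBS to 2936, 2409.9, 3262 and 3048 in Positive PBS, a log2 fold change of -0.48 ± 0.12 (adjusted p = 0.00261).

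Rpl10a stood apart among the core genes. It was at 2911, 3762, 3355 and 2950.1 in Input PBS against 6143, 6881, 7494 and 6596 in Positive PBS, a log2 fold change of 1.06 ± 0.10 (adjusted p = 9.88e-08), and at 3409.9, 3758, 3710.1 and 3391 in Input LPS. The positive values were about 2.09 times the input values in PBS and 3.43 times in LPS animals. The next core gene was Rps9, at 0.57 ± 0.12 in PBS animals. Whether reads of the tag construct add to Rpl10a was not tested.

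In LPS animals 77 members were called higher in the positive fraction and 0 lower, against 27.6% of all genes called higher. The median log2 fold change was 0.80. In 76 members every Positive LPS value lay above every Input LPS value, which held for 25.2% of all genes. Beside Rpl39l, whose input counts are near the floor, the fold change was highest for Rpl10a (1.78 ± 0.10), Rps27l (1.76 ± 0.13) and Rpl18 (1.46 ± 0.11). Rpl22l1 (-0.25 ± 0.10, adjusted p = 0.0359), Rps27 (0.21 ± 0.10, adjusted p = 0.0727) and Rplp1 (0.20 ± 0.11, adjusted p = 0.112) were not called. Each LPS comparison of fractions shares its Positive LPS libraries with the LPS effect above, so the counts are not independent of it.

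Within animals that have both libraries, 79 of the 80 members were higher in the positive fraction than in the input in each of LPS animals 266, 267, 270 and 507, with medians of 0.90, 0.69, 0.60 and 0.81 on the log2 scale. In PBS animals 268, 273 and 506 the number was 70, 57 and 68, with medians of 0.24, 0.12 and 0.25. PBS animal 272 differed, with 14 members higher and a median of -0.26. That animal had the highest share of member counts of any input library, 1.67%, and the lowest of the positive libraries, 1.32%. Without its input library 20 members were called higher in PBS animals, and without its positive library 17. The LPS effect in the positive fraction was called for 77 members without that positive library.

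**Figure D4:**
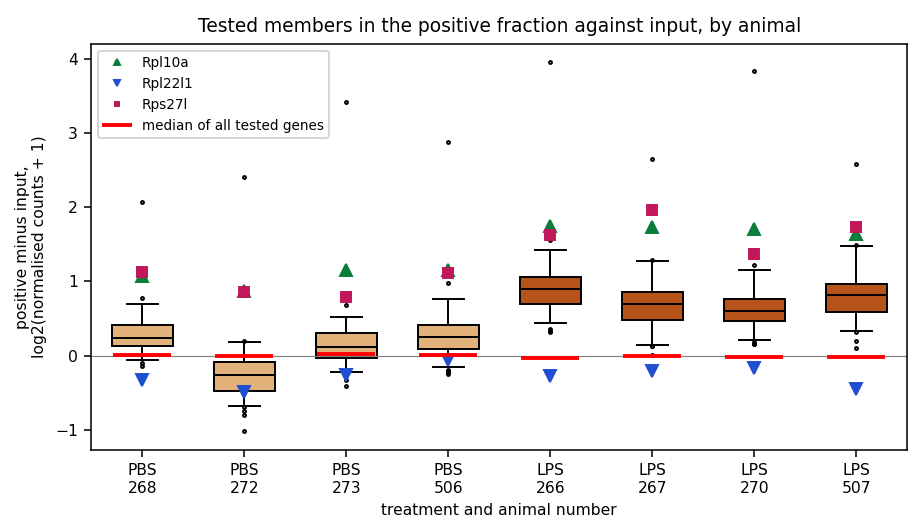
Positive minus input in log2(normalised counts + 1) for the 80 tested members in each animal with both libraries. Boxes are quartiles with the median, whiskers span the 5th to 95th percentile of the members, red lines are the median of all 14803 tested genes, and 3 genes are marked. The boxes of the 4 LPS animals lie higher than those of the PBS animals, of which that of 272 lies below 0, and Rpl10a and Rps27l lie above the upper whisker in each animal whereas Rpl22l1 lies below 0.

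Of the paralogs, Rps27l, Rpl39l, Rpl22l1 and Rpl36al passed the filter and each had its own pattern, so they are compared with their core genes per length of transcript. None of the 6 paralogs shares a stretch of 42 bases, the length of a trimmed read, with its core gene. Rps27l (gene ID 67941, chr9:66946118-66949509, mm10) was the paralog that rose most clearly. It was at 538, 481, 532 and 531 normalised counts in Positive PBS and at 1187, 1267, 859.7, 1435 and 1229 in Positive LPS, a log2 fold change of 1.20 ± 0.12 (adjusted p = 6.79e-07). Rps27 was at 1504, 1241, 1567 and 1474 and 1942, 1845, 1902, 2096 and 1684, a change of 0.39 ± 0.10, among the lowest of the set. Per kilobase, Rps27l made up 10.3% ± 0.973 of the pair in Input PBS (SD), 13% ± 1.60 in Input LPS, 19.97% ± 0.874 in Positive PBS and 30.3% ± 3.87 in Positive LPS. The ranges of Positive PBS and Positive LPS did not overlap (21.1% at most against 23.8% at least). In the annotation 98.7% of the 42-base windows of Rps27 are also found in other genes, foremost Rps27rt, so its count rests on how such reads were placed.

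Rpl39l (gene ID 68172, chr16:10170228-10174911), known for its expression in testis and in some tumours, was rare but present. It was at 1.82, 2.06, 1.90 and 0 normalised counts in Input PBS, at most 2 counts in every library and under the floor of 3 counts, and at 3.50, 12.9, 3.28 and 3.02 in Input LPS. In Positive PBS it was at 10.9, 15.2, 30.04 and 6.37 and in Positive LPS at 68.6, 85.98, 60.3, 57.4 and 23.1. The groups of the positive fraction overlapped through the library of LPS animal 507, and the log2 fold change was 1.92 ± 0.46 (adjusted p = 0.00259). Rpl39l passed the filter through Positive LPS alone, the group where it is high, so its call and the size of its change are a description and not a test of the gene. Rpl39 was at 1949, 1537, 2143 and 2024 and 3931, 3440.2, 2864, 3984 and 3227, a change of 0.87 ± 0.12. Per kilobase Rpl39l made up 0.898% ± 0.524 of the pair in Positive PBS and 1.85% ± 0.728 in Positive LPS, with overlapping ranges. In input the LPS change was not called (adjusted p = 0.153), and no fold is given at these counts.

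Rpl22l1 (gene ID 68028, chr3:28805511-28807415) did not change with LPS beyond its spread. It stood at 776, 944, 961 and 929.9 in Positive PBS and at 876, 899, 933, 918 and 756 in Positive LPS, with groups that overlap. Rpl22, which is known to repress its paralog, went from 3101, 2735, 3226 and 3369 to 4973, 4919, 3970.3, 5749 and 4566, a log2 fold change of 0.64 ± 0.10 (adjusted p = 4.52e-05). Per kilobase the share of Rpl22l1 in the pair was 53.1% ± 3.37 in Positive PBS and 41.6% ± 3.72 in Positive LPS, and the ranges did not overlap. Against input Rpl22l1 was lower in every positive library in both treatments, by log2 fold changes of -0.29 ± 0.10 in PBS (adjusted p = 0.0295) and -0.25 ± 0.10 in LPS animals (adjusted p = 0.0359). Both were within 0.32 of 0 and were not called, but scaling by total counts or by all 18 libraries and the deposited log2 values gave calls for both. The difference of the LPS effect between Rpl22l1 and Rpl22 was not tested.

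Rpl36al (gene ID 66483, chr12:69182734-69184067) moved with Rpl36a under LPS, by 0.71 ± 0.13 (adjusted p = 0.000274) against 0.78 ± 0.13 (adjusted p = 8.44e-05) in log2 units within the positive fraction. It differed between fractions, with 1333, 2116, 1605 and 1362 in Input PBS and 2044, 2247, 2573 and 2315 in Positive PBS, a log2 fold change of 0.52 ± 0.13 (adjusted p = 0.00439), whereas Rpl36a had 0.02 ± 0.13. The groups overlapped through the input library of animal 272. Its share of the pair per kilobase was 33.9% ± 1.49 in Input PBS and 42.1% ± 2.65 in Positive PBS, without overlap, and 40.9% ± 2.02 in Positive LPS.

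**Figure D5:**
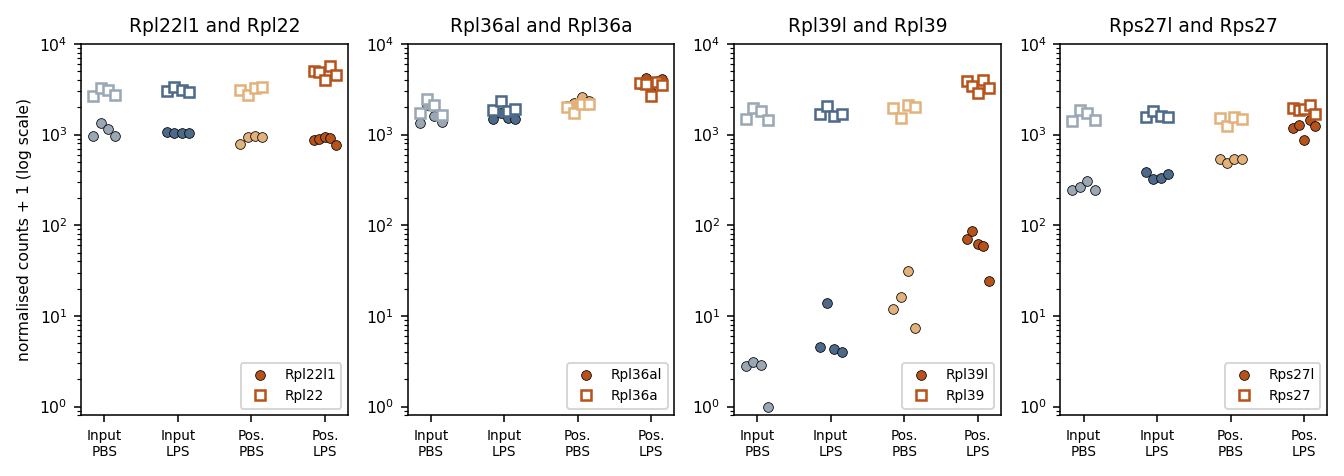
Normalised counts + 1 on a log axis of 4 paralogs (filled circles) and their core genes (open squares) in each library of the 4 groups. Rps27l nears Rps27 in Positive LPS, Rpl39l is below 100 normalised counts in every library, and Rpl22l1 stays at its level while Rpl22 rises in Positive LPS.

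The other 7 members did not pass the filter. Rpl3l, a paralog of Rpl3 of heart and skeletal muscle, had between 1 and 23 counts in the 17 libraries, at most 0.107% of the pair per kilobase in any library. Rpl31-ps12 had at most 10 counts. Rpl10l, Rps3a, Rps6-ps4, Rps15a-ps5 and Rpl34-ps1 were listed at 0 in each library. Every cell uses Rps3a, so its listing at 0 does not speak of its expression, and how reads with several matches were placed is not given in the sources used here.

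Most ribosomal protein genes have processed pseudogenes of nearly the same sequence. Of the 255 rows that are named Rpl or Rps and are not protein-coding, 250 were listed at 0 in every library, and together such rows took 0.0057% of counts in Positive LPS. Of the 4 that passed the filter Rps15a-ps4 (log2 fold change 0.75, adjusted p = 0.00058) and Rps19-ps3 (0.90, adjusted p = 0.00049) were called higher under LPS in the positive fraction. Rps4y2 (0.17, adjusted p = 0.499) and Rplp2-ps1 (0.44, adjusted p = 0.18) were not called. Rps4y2 held most counts of these rows, 15547 over the libraries, against 2738 for Rps15a-ps4, the next. Of the 82 members with a protein-coding transcript in the GENCODE annotation of this build, the median share of 42-base windows found in another annotated gene was 56.3%. The 50 tested members with over 50% of windows shared had a median LPS effect of 0.69 in the positive fraction and the other 30 one of 0.71. All 6 members with at most 10% shared, among them Rpl22, Rpl39l, Rpl8 and Rps3, were called higher, from 0.61 to 1.92. The value of 1.92 is that of Rpl39l, whose call is a description and not a test. Of all genes tested, 19.0% were called higher.

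Members with and without a pyrimidine run at the annotated start had like changes, a difference that was not tested. The 20 tested members with a run of at least 5 letters had a median log2 fold change of 0.69 under LPS in the positive fraction, and the 40 with a shorter run or none had 0.71. All 20 of the former and 39 of the latter were called higher, against 19.0% of all genes tested. The former include Rpl39l, whose call is a description and not a test.

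Lists of other genes of protein synthesis had smaller median changes. Among 20 further genes of the translation apparatus, such as elongation and initiation factors, 13 of 20 were called higher and 0 lower under LPS in the positive fraction, with a median log2 fold change of 0.47. They include Fau, which encodes a ribosomal protein that the naming rule leaves out, and Gnb2l1 (Rack1), a ribosome-bound scaffold with the largest change at 0.98. Of the ribosome biogenesis genes 31 of 39 were called higher (median 0.49, highest Nhp2 at 1.29). Of the mitochondrial ribosomal protein genes, which build a separate ribosome and are not known as TOP mRNAs, 23 of 76 were called higher (median 0.22, highest Mrpl52 at 0.88). For comparison, 19.0% of all genes tested were called higher under LPS in the positive fraction, with a median log2 fold change of 0.01. In input the medians of these lists were 0.02, 0.07 and -0.08. The differences between the lists were not tested.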

How the data were processed

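Per the labels and the study's methods, the authors made stranded libraries, trimmed 2 bases at the 5′ and 6 at the 3′ end of 50-base paired reads, aligned them to mm10 in Strand NGS and quantified RefSeq genes. How reads with several matches were placed is not given in the sources used here. The deposited table holds estimated counts, of which 81.6% of the nonzero values are not whole, and the authors' log2 values after DESeq normalisation. The study tested by a 2-way analysis of variance.

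Here the estimated counts were rounded, scaled by median-of-ratios size factors over 15766 genes in 17 libraries, filtered at over 20 normalised counts in every library of at least 1 group and fitted with edgeR 4.0.16 (quasi-likelihood, 4 groups, 13 residual degrees of freedom, R 4.3.3). limma 3.58.1 and DESeq2 1.42.0 served as alternatives, with other scalings, filters, sets of libraries, sex as a covariate and the animal as a block. Input and positive libraries pair by the animal number in the labels, and the deviations of each pair from the group means correlated at 0.160 to 0.519. Counts of 14803 genes were simulated for the LPS effect in the positive fraction. Of the genes changed 1.5-fold 64 of 100 were called, and of those changed 2-fold 90 of 100. The genes left unchanged gave 8 false calls. The changed genes were drawn from those above a minimum mean count. Intervals were not computed for counts, and the floor of 3 counts covers counting error only.

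The members, gene lists and tests were chosen with earlier results of these data known. Genes named are Rpl10a, the paralogs with their core genes, role groups and the 5 highest and 5 lowest members of each comparison, and other members where a count is listed in full. Transcripts are of GENCODE and start windows of RefSeq. Results for some genes are not reported here.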

Additional observations from a re-analysis of the deposited data

Results flagged for a closer look

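The LPS effect differed between the fractions for 71 members by the interaction in edgeR, with the larger effect in the positive fraction. Differences (log2 of the LPS effect in the positive fraction minus input) are given here for a selection of the genes described. The difference was 1.11 for Rpl35, 1.11 for Rps19, 1.08 for Rps18, 1.04 for Rpl32, 0.82 for Rps27a and 0.81 for Rps21. It was 0.80 for Rplp2 and Rpl39, 0.79 for Rps27l, 0.78 for Rpl36a, 0.76 for Rpl36al and 0.73 for Rpl11. Lower values were 0.72 for Rpl10a, 0.66 for Rplp0, 0.63 for Rps6, 0.60 for Rpl13a, 0.56 for Rpl22 and 0.55 for Rpl5. Described genes outside this selection include Rpl18 at 0.96, Rps2 at 0.86, Rps25 at 0.84 and Rpl38 at 0.83.

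In 100 groups of values examined, 11 held a library far from the others by Dixon's criterion, where chance gives about 1 in 20 groups. Animal 267 was apart in Input LPS for 6 measures, with the highest normalised counts of Rplp2 (3103), Rpl5 (8239), Rpl11 (6533), Rps21 (4242) and Rpl39l (12.9) and the lowest ratio of large to small subunit counts (1.68). In Positive PBS, animal 268 was low for Rpl22l1 (776), animal 272 low for Rps27l (481) and animal 273 high for Rpl21 (9943). Animal 270 was low for Rpl36a in Positive LPS (2678), and Rpl39l was at 0 in the Input PBS library of animal 506.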

How the results depend on the processing

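Within the positive fraction, the LPS effect kept its count and direction under all 28 alternatives (77 to 79 members called higher when 1 library was left out, 0 lower). In input the count of 1 became 0 without a filter, with all 18 libraries kept, without animals 506 and 507, with female animals alone, in the authors' log2 values and with the replicate block, and 2 with sex as a covariate (0 to 1 with 1 library left out). The comparison of fractions in PBS animals depended on the scaling and on the animals used. The members called higher there were 7 by total counts, 5 with all 18 libraries, 8 without animals 506 and 507 and 6 in the authors' log2 values, and those called lower 6, 5, 3 and 6. With female animals alone 19 were called higher and 0 lower. Leaving out 1 library gave 10 to 20 higher and 1 to 4 lower. In LPS animals 1 was called lower by total counts, with 18 libraries and in the authors' log2 values, and 74 to 77 were called higher with 1 library left out. The difference between the fractions was called for 65 to 73 members with 1 library left out, 40 without animals 506 and 507 and 5 with female animals alone. Scaled to the total of each library, the summed members had a log2 ratio of positive to input of -0.011 in PBS animals and 0.612 in LPS animals, against 0.105 and 0.79 with size factors. With the replicate block 78 members were called higher for LPS in the positive fraction, 15 between fractions in PBS animals, 74 between fractions in LPS animals and 74 for the interaction, so it changed no count but that in input by over 1.5 times. Over all alternatives for the genes named, 149 results lost a call, 60 gained one, 6081 kept their side of the threshold and 0 reversed. The cause of these changes was not tested. Depth limits Rpl39l, Rpl3l and Rpl31-ps12, which have few counts per library.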

Other observations

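In input the share of member counts went with the sex of the animal, a split that was chosen after the values were seen and was not tested. The 2 male Input PBS libraries held 1.48% and 1.67% and the 2 female ones 1.27% and 1.29%. The 1 male Input LPS library held 1.64% and the 3 female ones 1.40% to 1.45%. Among female libraries every Input LPS share thus lay above every Input PBS share. The male Input LPS library lay between the 2 male Input PBS libraries. In the positive fraction the ranges of the sexes overlapped, with 1.32% to 1.51% in male and 1.41% in both female Positive PBS libraries, and 2.30% in the male against 1.96% to 2.45% in the female Positive LPS libraries.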
